A study of Drosophila melanogaster with 2 samples.

Results

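The trypsins of the Drosophila melanogaster gut were followed as 10 paralogous genes: alphaTry, betaTry, gammaTry, deltaTry, epsilonTry, zetaTry, etaTry, thetaTry, iotaTry and lambdaTry. They were found through the array probes whose only annotated gene was one of these symbols, which gave 1 probe per gene and 10 genes of the 12236 named by a probe with 1 symbol. Of the 10 genes, 9 were measured on both arrays and 1, iotaTry, on neither. The family was chosen because the mean log ratios of some of its members in this same comparison were already known to be low. The values below are therefore a description, without a test of the trypsins.

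PolyA RNA of 2 crosses of transgenic larvae was compared on 2 two-colour arrays: GMR X GFP-dASF/SF2 and, as the control, GMR X GFP-NLS. Both crosses carry GMR, an enhancer active in the developing eye, and both express a GFP fusion, either to the SR protein dASF/SF2, a regulator of pre-mRNA splicing, or to a nuclear localisation signal (NLS). The labels give no larval age, sex, number of larvae, tissue or extract. The p-values over all probes therefore measure only the spread between 2 arrays, which may be technical.

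Array 1 held dASF/SF2 RNA in Cy5 and array 2 held it in Cy3. Each array gave 1 log ratio per probe, and the labels and the table settle neither its log base nor the channel in its numerator. The labels list dASF/SF2 as the source of channel 2 on both arrays. If the ratio is channel 2 over channel 1, it runs by cross, and array 2 should not be turned. Here the values were read as running by dye, so the sign of array 2 was turned, and the median of each array was then set to 0. With Cy5 in the numerator, a negative value means less RNA in dASF/SF2 larvae. With Cy3 there, it means more, so the sides are only called negative and positive. The values are differences between crosses and say nothing about which trypsin is the more abundant.

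Trypsins are serine proteases that cut proteins after lysine or arginine. Insect midgut cells secrete them into the gut lumen as inactive precursors, and removal of a short propeptide activates them to digest dietary protein. The Drosophila genes arose by repeated duplication and lie side by side, so some copies are nearly identical, and a probe for one copy may also bind RNA of another. Probe sequences were not used here, and cross-hybridisation between copies was not tested.

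With array 2 turned, the 9 measured trypsins split widely. The adjacent genes alphaTry, epsilonTry, betaTry and gammaTry, lay on the negative side of both arrays with means from -0.869 to -0.472, whereas the means of the other 5 lay between -0.092 and 0.207. Relative to the array median, a value of at least 0.3 on the negative side of both arrays was reached by 4 of the 9 trypsins and by 0.861% of the 10912 probes compared. On the negative side of both arrays at any size lay 6 of the 9, against 24.5% of probes. Of the other 3, lambdaTry was positive on both arrays, as were 24.7% of probes, and zetaTry and thetaTry had opposite signs, as had 49.9% of probes. No trypsin reached 0.3 on the positive side of both arrays, where 1.79% of probes lay. The probes include those of the trypsins, and nothing is read from these shares, because the trypsins were picked on the same comparison.

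Across all probes, limma called 0 of 10912 at a Benjamini-Hochberg adjusted p under 0.05, or 0% (lowest adjusted p = 0.374), and 725 (6.64%) at an unadjusted p under 0.05. The SF2 probe (CG6987), for the gene of the overexpressed protein, gave -0.032 on array 1 and -0.137 on array 2. No source used here says whether the transgene holds the sequence of this probe, so its value does not check the labels. Array 1 had the wider spread, with a median absolute value of 0.128 over all probes against 0.097 on array 2. The 2 arrays were nearly uncorrelated across probes (Pearson r = 0.0244, a description over probes that share 2 arrays).

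epsilonTry (CG18681) stood lowest of the trypsins. It had -1.005 on array 1 and -0.733 on array 2, with a mean of -0.869 ± 0.192 (SD, n = 2 arrays). Both arrays lay far on the negative side. The mean corresponds to a 1.83-fold difference if the logs are base 2 and 7.40-fold if they are base 10. Counted from the lowest of the 10912 probes, it ranked 39 on array 1 and 3 on array 2, and 10 by the mean.

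betaTry (CG18211), which lies next to epsilonTry on the chromosome, followed with -0.844 on array 1 and -0.584 on array 2. Its mean was -0.714 ± 0.184 (SD, n = 2). As log2 this is a 1.64-fold difference, and as log10 a 5.18-fold one. It ranked 57 from the lowest on array 1 and 21 on array 2. Before any local correction, betaTry lay above epsilonTry within each array by almost the same amount, 0.161 on array 1 and 0.149 on array 2. This difference of 0.155 ± 0.00849 (SD, n = 2) is larger than its spread between the arrays, although each gene on its own moved by more than that from one array to the other.

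gammaTry (CG30028) had -0.586 on array 1 and -0.462 on array 2, a mean of -0.524 ± 0.0877 (SD, n = 2). alphaTry (CG18444) had -0.556 and -0.388, a mean of -0.472 ± 0.119 (SD, n = 2). Both genes were on the same side of both arrays and close to each other. They differed by 0.03 on array 1 and 0.074 on array 2. Their means amount to 1.44-fold and 1.39-fold as log2, or to 3.34-fold and 2.96-fold as log10. gammaTry ranked 159 and 57 from the lowest on the 2 arrays, and alphaTry 185 and 108.

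All 4 genes had values of smaller absolute size on array 2 than on array 1, by a similar factor. The array 2 value was 0.692 to 0.788 times the array 1 value in these genes. The median absolute value over all probes was 0.758 times as large on array 2 as on array 1.

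**Figure D1:**
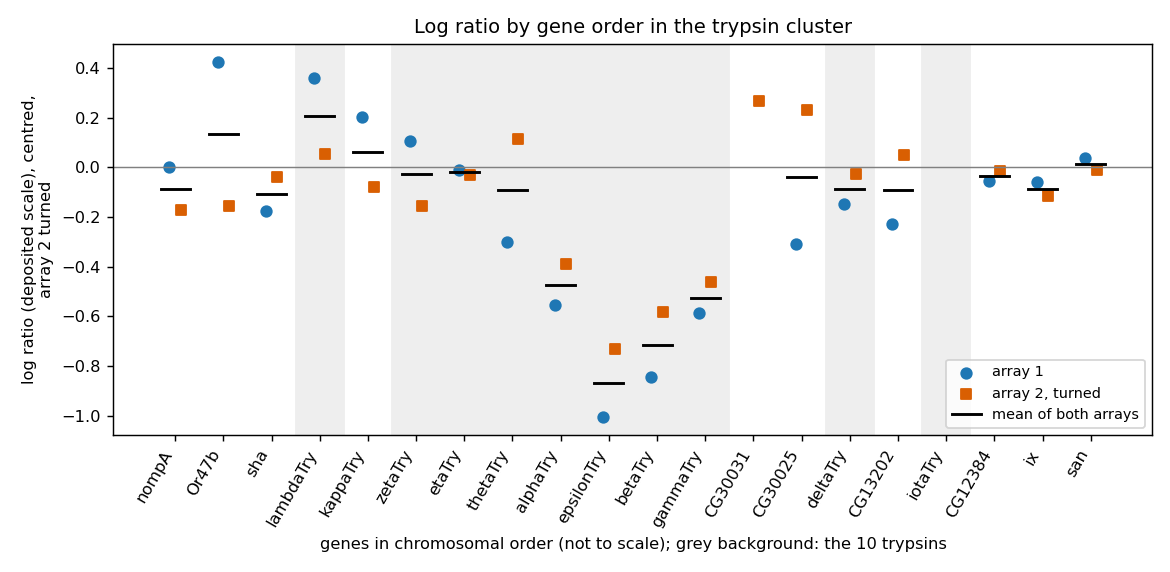
Centred log ratio (vertical axis, deposited scale, array 2 turned) of the trypsins and their neighbours in chromosomal order, with array 1 as circles, array 2 as squares and the mean of both as a bar. The 4 adjacent genes alphaTry, epsilonTry, betaTry and gammaTry lie from -1.005 to -0.388 on both arrays. iotaTry has no value and CG30031 has one on array 2 alone.

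The other 5 measured trypsins lay nearer the array median. deltaTry (CG12351) had -0.148 on array 1 and -0.026 on array 2, a mean of -0.087 ± 0.0863 (SD, n = 2). It was on the negative side of both arrays but close to the centre. etaTry (CG12386) had -0.009 and -0.032, with the mean closest to 0 of the 9 before any local correction, -0.0205 ± 0.0163 (SD, n = 2).

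In 2 genes the arrays disagreed in sign. thetaTry (CG12385) had -0.30 on array 1 and 0.116 on array 2, and its mean of -0.092 ± 0.294 (SD, n = 2) is smaller than its spread. zetaTry (CG12387) had 0.104 on array 1 and -0.154 on array 2, with a mean of -0.025 ± 0.182. Their deposited signs, before turning, were the same on both arrays.

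lambdaTry (CG12350) was the only measured trypsin on the positive side of both arrays. It had 0.361 on array 1 and 0.053 on array 2, and the mean of 0.207 ± 0.218 (SD, n = 2) is smaller than the SD.

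The trypsins were then compared with one another within each array. Such a difference does not depend on how an array is centred, since both genes are read on the same array, but it still depends on turning array 2. Of the 36 pairs of measured trypsins, 29 kept their order on both arrays before any local correction. This held for 6 of 6 pairs within alphaTry, betaTry, gammaTry and epsilonTry. Both arrays then had epsilonTry, betaTry, gammaTry and alphaTry in this order, from the lowest up. Order was also kept in 20 of 20 pairs that set one of these 4 genes against one of the other 5. In those pairs the smallest difference was 0.256 on array 1 and 0.234 on array 2. The pairs are not independent, and the division into 4 and 5 genes was read from the values.

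Within the other 5 genes, only 3 of 10 pairs kept their order. lambdaTry lay above deltaTry, zetaTry and etaTry on both arrays, by 0.509 and 0.079, by 0.257 and 0.207, and by 0.37 and 0.085. thetaTry was below the other 4 of these genes on array 1 and above all of them on array 2. By the mean, thetaTry, deltaTry, zetaTry and etaTry, which are neighbours in that order, did not differ beyond the spread of their differences.

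**Figure D2:**
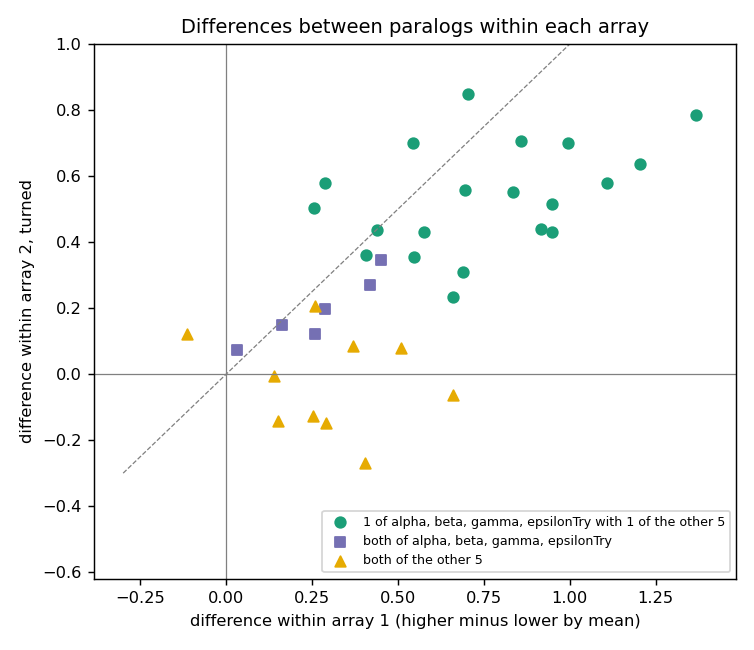
Differences between 2 trypsins within array 1 (horizontal axis) and within array 2 (vertical axis), 1 point for each of the 36 pairs, the gene with the higher mean minus the one with the lower, in deposited log units. The broken line marks equal differences. The 26 pairs that include alphaTry, betaTry, gammaTry or epsilonTry are above 0 on both arrays, and 7 of the 10 remaining pairs differ in sign.

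The contrast between gammaTry and deltaTry was the most even of the 36 before any local correction. Both are duplicates in the gene cluster, and their sequences were not compared here. gammaTry lay below deltaTry by 0.438 on array 1 and by 0.436 on array 2, a difference of 0.437 ± 0.00141 (SD, n = 2). The probes of the pair therefore gave unequal ratios on both arrays, although how far each probe separates the copies was not tested.

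By position, all 10 trypsins lie on chromosome arm 2R between lambdaTry at one end and iotaTry at the other. In the gene order of the Release 6 plus ISO1 MT reference, 14 genes span this stretch, and 13 of them are trypsins of these lists. The order runs lambdaTry, kappaTry, zetaTry, etaTry, thetaTry, alphaTry, epsilonTry, betaTry, gammaTry, CG30031, CG30025, deltaTry, CG13202 and iotaTry. The 4 genes of low value are consecutive in that order. On both arrays epsilonTry, between alphaTry and betaTry, had the lowest value of the run.

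The genes on either side did not continue the run. thetaTry, before alphaTry, changed sign between the arrays. CG30031, after gammaTry, was measured on array 2 alone, where it lay on the positive side at 0.267. The next gene, CG30025, had -0.308 on array 1 and 0.231 on array 2, so its mean of -0.0385 ± 0.381 (SD, n = 2) is far smaller than its spread. kappaTry, between lambdaTry and zetaTry, had 0.202 and -0.079 (mean 0.0615 ± 0.199). None of the 7 measured non-trypsin neighbours, which were chosen by position after the values had been seen, reached 0.3 on the same side of both arrays. Their means ran from -0.107 to 0.136.

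Beyond the cluster, the trypsin gene Try29F (CG9564), on chromosome arm 2L, was measured on array 2 alone and had -0.078 there. Of the 4 trypsin genes outside the 10, the 2 with values on both arrays, kappaTry and CG30025, thus had opposite signs on the 2 arrays.

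**Figure D3:**
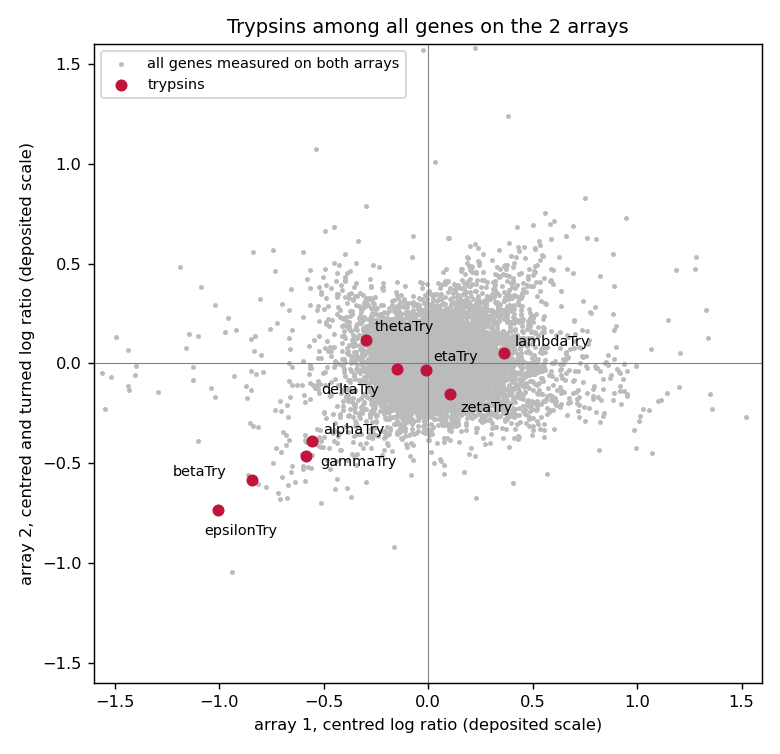
Centred log ratio on array 1 (horizontal axis) against array 2 after turning (vertical axis) for all genes measured on both arrays (grey) and the 9 measured trypsins (red), on the deposited log scale. Both axes end at 1.6, which leaves out 7 of 9266 genes. alphaTry, betaTry, gammaTry and epsilonTry lie at the lower left, and the other 5 trypsins within the cloud of other genes.

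For each trypsin at least 0.3 from the centre on both arrays, the most similar gene outside the family was sought among 9257 genes by the distance between the pairs of array values. CG13323 was the nearest to betaTry, at -0.865 and -0.558 (distance 0.0334), and 3 genes lay within 0.1 of betaTry. It was also the nearest to epsilonTry, at a distance of 0.224, and 0 genes lay within 0.1 of epsilonTry. betaTry, the trypsin closest to epsilonTry, was at a distance of 0.219. The nearest to gammaTry was the mucin-named gene Muc55B (CG5765, -0.605 and -0.453, distance 0.021), with 13 genes within 0.1. The nearest to alphaTry was CG9328 (-0.537 and -0.406, distance 0.0262), with 16 genes within 0.1. With 2 values per gene, this likeness describes 2 arrays only.

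Other proteases of the gut were read beside the trypsins. The list held the Jonah genes, yip7 and 3 Ser genes, serine proteases secreted for digestion or related to those that are. Of these 20 genes, 13 were measured on both arrays, and 9 were negative on both, 0 positive on both and 4 of opposite signs. Of all 9266 genes measured on both arrays, 2315 were negative on both, 2222 positive on both and 4656 of opposite signs. At least 0.3 on the negative side of both arrays was reached by 7 of 13, beside 4 of 9 trypsins and 82 of the 9266 genes. The list median was -0.399, that of the trypsins -0.092 and that of all 9266 genes -0.001. On array 1 alone the medians were -0.484 for this list and -0.30 for the trypsins, and on array 2 alone -0.365 and -0.154. The mean over the 9 trypsins was -0.289. Jon25Biii was lowest, at -0.815 on array 1 and -0.603 on array 2, and Ser12 highest by mean, at 0.355 and -0.116. betaTry and Jon25Biii had almost the same mean, -0.714 ± 0.184 and -0.709 ± 0.150 (SD, n = 2), and epsilonTry lay below every measured gene of this list. Whether the lists differ was not tested.

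**Figure D4:**
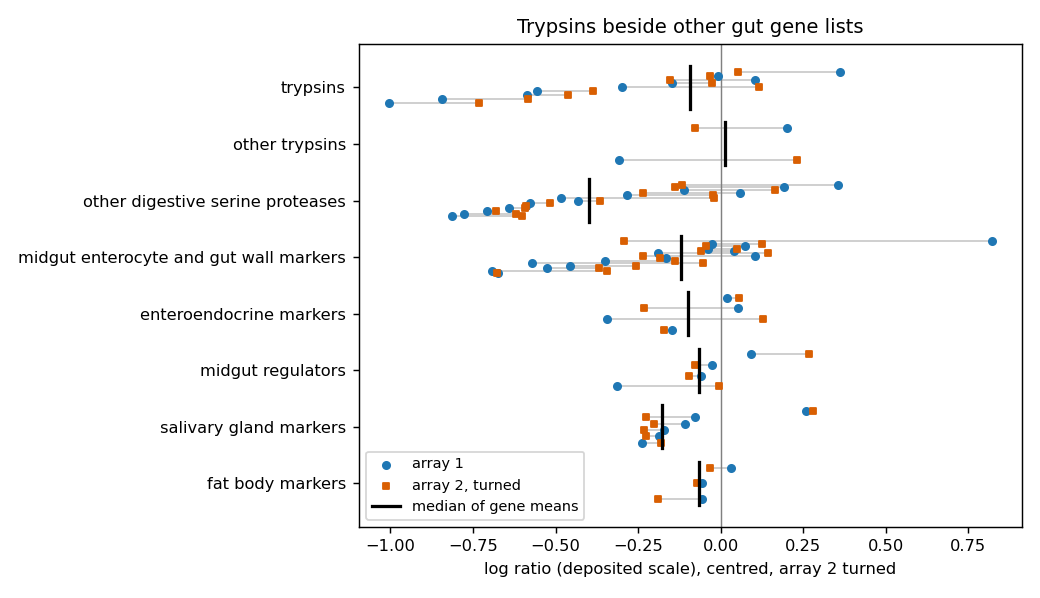
Log ratio (horizontal axis, deposited scale) of the genes of each list measured on both arrays, with array 1 as circles, array 2 as squares, a grey line joining the values of a gene and a black bar for the median of the gene means. Trypsins and other digestive serine proteases both hold genes below -0.5 on both arrays and genes around 0.

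Markers of the midgut itself were not uniformly low. Of 14 measured markers of enterocytes and the gut wall, 7 were negative on both arrays, 0 positive on both and 7 of opposite signs, with a list median of -0.12. At least 0.3 on the negative side of both arrays was reached by 3 of the 14, Muc18B, Peritrophin-15a and Peritrophin-15b. Of all 9266 genes measured on both arrays, 2315 were negative on both and 82 by at least 0.3. The lowest was Muc18B, a mucin gene, at -0.675 and -0.676. Peritrophin-15a and Peritrophin-15b, genes for proteins of the matrix that lines the gut lumen, had means of -0.447 and -0.520, and mex1, a gene named for its expression in the midgut, had -0.457 and -0.256. The sterol-binding protein gene Npc2d (0.073 and -0.045) and the phosphatase gene Alp4 (0.039 and -0.059) lay near 0, and the mannosidase gene LManI was highest by mean but had 0.822 and -0.294. In RNA of larvae, a different number of midgut cells and a different amount of trypsin RNA per cell cannot be told apart. The part of these markers in the trypsin values was not tested.

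Among regulators of the midgut, 4 of 10 genes had values on both arrays, with a median of -0.0655. caudal (cad), a homeodomain factor of the posterior gut, had -0.315 and -0.006. Hnf4, a nuclear receptor, was highest at 0.091 and 0.267, and daw, a TGF-beta ligand, had -0.028 and -0.079. GATAe, a GATA factor of the endoderm, had a probe but no value on either array. Enteroendocrine markers had a median of -0.0983 over 4 genes, from NPF at -0.147 and -0.171 to pros at 0.019 and 0.054. The progenitor marker esg had 0.09 and 0.057, and the visceral muscle marker bin 0.20 and 0.133. Each was the only 1 of 4 genes of its list with values on both arrays. The copper cell markers gave no value on both arrays, since Ptx1 and Vha100-4 were read on array 2 alone (-0.318 and -0.05). Of the genes measured on both arrays in these lists of regulators, enteroendocrine cells, progenitors and visceral muscle, none reached 0.3 on the same side of both. The unmeasured genes of these lists leave this open for the cell types as such.

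Salivary gland and fat body genes were read the same way. Salivary gland glue genes had a median of -0.179, with 5 of 6 negative on both arrays, beside 2315 of all 9266 genes. The lowest mean, that of Sgs4, was -0.21. Sgs1 was the exception, on the positive side of both arrays at 0.259 and 0.278. Fat body genes had a median of -0.065 over 3 measured, and the lowest, Fbp2, had -0.058 and -0.189 and the highest, Lsp2, 0.032 and -0.033. No gene of these 2 lists that was measured on both arrays reached 0.3 on the negative side of both. The values of alphaTry, betaTry, gammaTry and epsilonTry were all lower, by mean, than those of the salivary gland and fat body genes measured. Their part in the trypsin values was not tested.

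Neighbouring probes were read as well. The running median around each trypsin's probe, taken along the probe order, was at most 0.147 in size on either array after turning. It reached -0.147 on array 2 and 0.107 on array 1 at zetaTry, close to the values of zetaTry itself. With it removed, zetaTry stood at 0 and -0.008. At alphaTry it was 0.078 on array 1 and -0.128 on array 2, and the corrected values were -0.631 and -0.261, so that 3 trypsins and not 4 reached 0.3 on the negative side of both arrays. epsilonTry had -0.932 and -0.755 after this correction, betaTry -0.88 and -0.581 and gammaTry -0.599 and -0.441. On array 1 alphaTry thus lay below gammaTry, the reverse of their order there before the correction. betaTry still lay above epsilonTry on both arrays, but no longer by almost the same amount. The difference between gammaTry and deltaTry was also less even, with deltaTry at -0.118 and -0.02.

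The signs of the array 2 values, and with them the means, rest on turning array 2. If the deposited values already run by cross and not by dye, each of alphaTry, betaTry, gammaTry and epsilonTry lies on opposite sides of the 2 arrays. epsilonTry then has -1.005 and 0.733, and the means of the 4 genes shrink to between -0.136 and -0.062. Under that reading thetaTry is negative on both arrays (-0.30 and -0.116), with the lowest mean of the family (-0.208), and zetaTry is positive on both (0.104 and 0.154). The labels list dASF/SF2 as channel 2 on both arrays, so a deposited ratio of channel 2 over channel 1 would run by cross. No source used here states how the ratio was formed, so which reading holds is not settled.

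**Figure D5:**
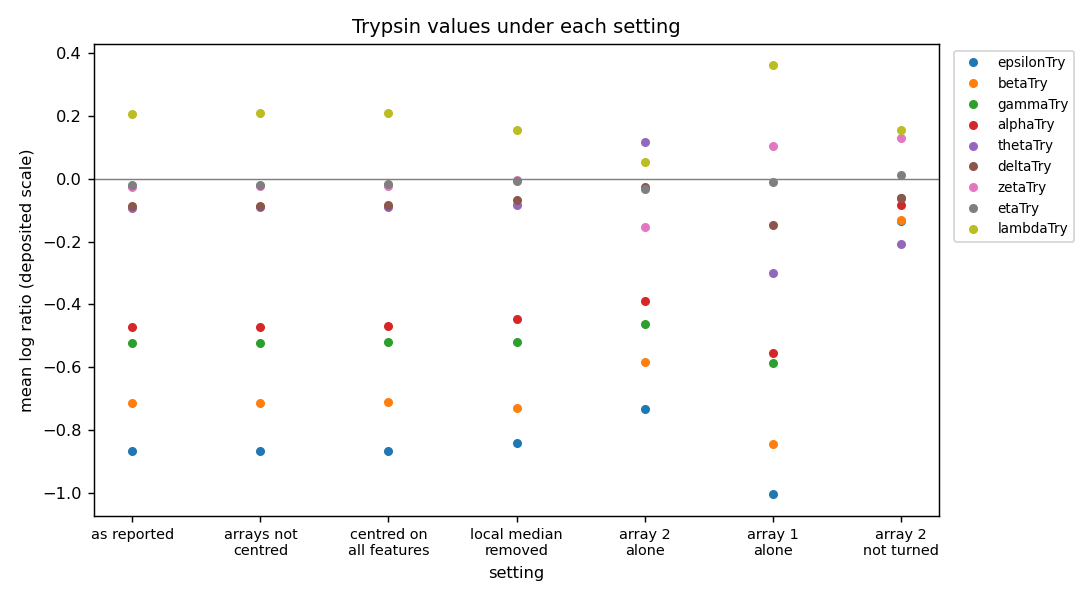
Mean log ratio (vertical axis, deposited scale) of each of the 9 measured trypsins under the reported setting and 6 alternatives (horizontal axis). alphaTry, betaTry, gammaTry and epsilonTry stay below the other 5 genes in the first 6 settings, and lie between -0.136 and -0.062 when array 2 is not turned.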

How the data were processed

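PolyA RNA was compared on 2 two-colour arrays in a dye swap. The deposited score of each probe is a log ratio of the 2 channels. Scanner, background correction, normalization, log base and numerator were not given in the sources used here. The number of arrays, 2, limits the precision. The table held 15744 probes. Blank cells (3996 on array 1, 1450 on array 2) and 7 cells with the code -10000 were treated as missing. Unused columns numbered 0.

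Symbols came from the platform annotation (1 symbol for 13147 probes, several for 99, none for 2498) and were updated by gene identifier for 12519 probes. The 960 features at 40 places without a name in each of 24 blocks were left out, a choice made after earlier results were known. This left 10912 probes with values on both arrays. Array 2 was turned, arrays were centred on their medians, and limma 3.58.1 in R 4.3.3 (lmFit, eBayes, two-sided, against 0, Benjamini-Hochberg) was run on all of them, after it was tested on simulated data. In the simulations, calls of known changes were required only at a spread far below the median SD between the arrays, 0.107. The power of the test on these arrays is therefore not shown. The test has 1 group of 2 arrays.

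The trypsins and all lists were chosen with earlier results of these data known. Named were all 10 trypsins, the nearest gene to each trypsin at least 0.3 from the centre on both arrays, and, of each other list, the genes with the lowest and highest mean. Further list genes and chromosomal neighbours were named after their values were seen.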

Additional observations from a re-analysis of the deposited data

How the results depend on the processing

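No paired analysis was possible because the 2 arrays form 1 group. The count of probes called by limma stayed at 0 with arrays not centred, centred on all features, read as running by genotype, corrected by the running median, with probes of 1 array or the repeated unnamed features added, and at gene level (lowest adjusted p from 0.137 to 0.961). Without moderation of the variance 21 probes passed. All of them were among the 22 probes whose 2 values, after centring and turning, were equal to the last deposited decimal. The median of the trypsins, -0.092, ranged from -0.30 to -0.154 with 1 array left out. It was -0.289 as a mean over the genes. The number of trypsins negative on both arrays fell from 6 to 1 with the values read as running by genotype, where 5 of 9 trypsin values also moved by more than their SD. That number was 5 with arrays centred on all features and 5 with the running median correction. With other centring or the running median correction, 0 of 9 trypsin values moved by more than their SD. Leaving out 1 of 2 arrays cannot move a mean by more than its SD, so those values do not bear on stability. No leave-one-out test of the probes was made, since 1 array leaves no residual degrees of freedom, and each trypsin has 1 probe, so no values by probe could be compared.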
